A study of Mus musculus with 24 samples.

Results

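The 8 integrin subunit genes Itgb1, Itgb5, Itga3, Itga5, Itga6, Itga7, Itgav and Itga9 were followed in the mouse P19 line, embryonal carcinoma cells that remain pluripotent in culture. Members were all probe sets of 2 Affymetrix chips, MOE430A and MOE430B, whose platform annotation gives a single symbol that is one of these genes. This gave 28 probe sets of 45265, for 8 of 18194 genes with a single symbol. Of the 28 probe sets, 14 passed a filter on low signals, and they stood for 7 of the 8 genes. Total RNA was taken at stages D1 and D2 from cells grown as a monolayer or in suspension, with 3 RNA samples in each of the 4 groups. All groups were grown in alpha medium with fetal bovine and calf serum; the labels name no inducer, do not spell out D, and describe the cells as a pure clonal culture, so a single line carries every result. Each RNA was read on both chips, and the labels do not say whether the 3 samples of a group were separate cultures, so p-values measure the spread between these samples, which may be technical.

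Integrins are cell surface receptors made of an alpha and a beta subunit. They bind extracellular matrix outside the cell and, through talin, kindlin and adaptor proteins, the actin cytoskeleton inside it. Itgb1 encodes the beta subunit that pairs with most matrix-binding alpha subunits, including Itga3, Itga5, Itga6, Itga7, Itga9 and Itgav, while Itgb5 pairs with Itgav in a vitronectin receptor. Itga5 with Itgb1 forms the classical fibronectin receptor, and Itga3, Itga6 and Itga7 form laminin receptors. Aggregation in suspension takes P19 cells off the culture dish, and the series asked how aggregation changes gene expression in these cells. In arrays of whole cultures, fewer cells that hold a transcript and less of that transcript per cell cannot be told apart.

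The values are MAS5 signals, linear intensities of 1 probe set on 1 array, scaled by the submitters to a common mean. Signals of different probe sets depend on their probes and were not set against each other. The chips' run files give a station and a hybridization time for each array, and 3 wash runs were inferred from these. They were an earlier session on station 1, an earlier session on station 2, and a later session that held every replicate 3. The later session was set by time alone, without regard to station. Each run held 1 sample of each group, and values within runs are given in this order. Of 13 markers of pluripotent cells, 10 passed the filter, among them Pou5f1, Sox2, Nanog and Cdh1, and all 10 exceeded the chip's median signal on all 12 arrays. Of the 10 fibroblast markers 4 passed, of the 10 endoderm markers 6, of the 7 trophoblast markers 3, of the 7 blood cell markers 2, of the 5 endothelial and 6 skeletal muscle markers 1 each, and of the 6 neuronal markers 4; none was listed at 0. Summed trophoblast marker signals ran from 3671 to 7487 in monolayer and from 7442 to 13380 in suspension samples, while summed pluripotent marker signals ran from 110300 to 138600 over all samples. The 3 trophoblast markers that passed were Cdx2, Hand1 and Eomes. The sum also holds the listed markers that did not pass, and it does not show which of these genes differed.

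**Figure D1:**
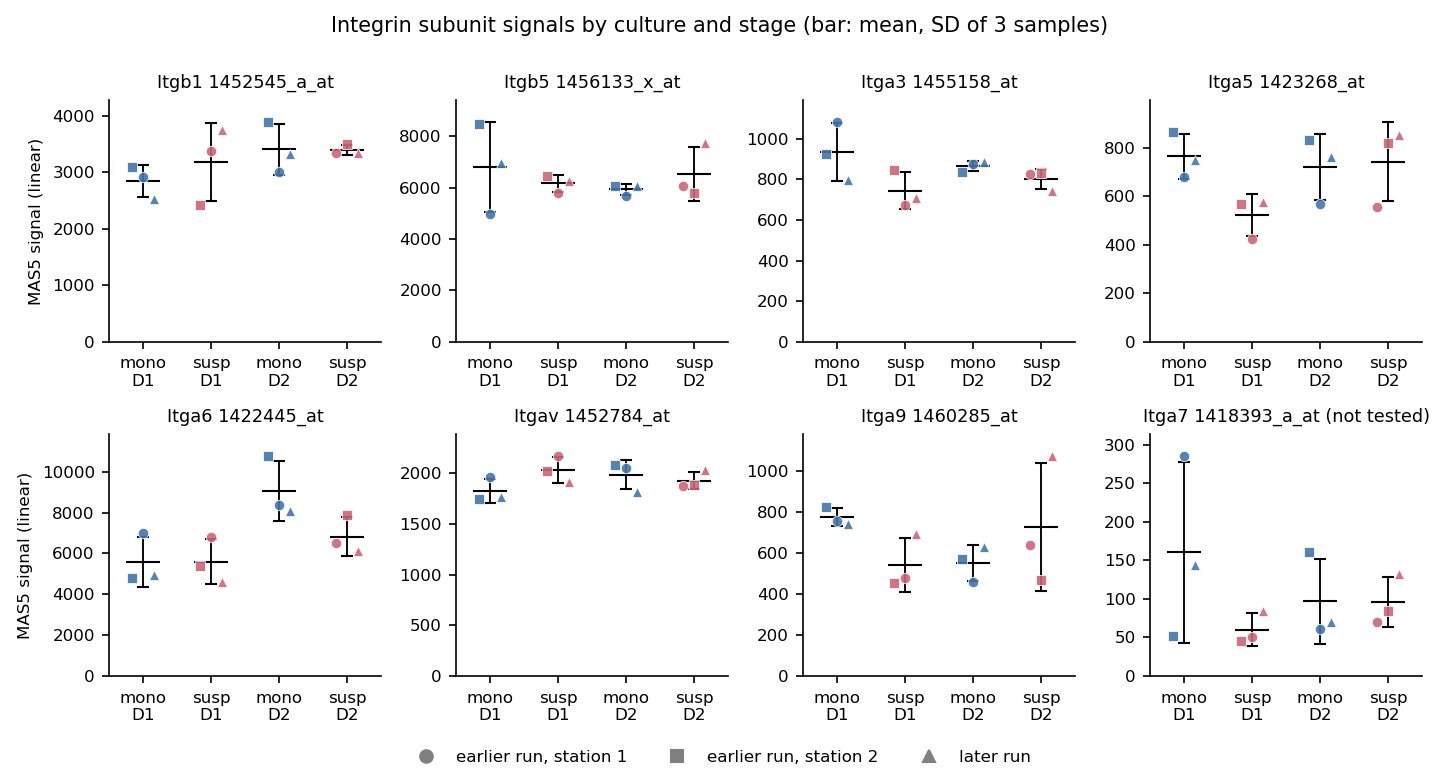
Linear MAS5 signal (vertical axis, from 0) of the brightest tested probe set of each integrin subunit, and of the untested Itga7 probe set, in the 4 groups. Points are samples, with the shape giving the wash run, and bars are the mean and SD of 3 samples. Itgav lay between 1747 and 2165 in all 12 samples, and Itga6 was highest in monolayer at D2.

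In the comparison of suspension with monolayer culture, no integrin subunit probe set passed the test at either stage. Differences were tested with limma on log2 signals after adding a small offset, and a probe set was called at a Benjamini-Hochberg adjusted p under 0.05 over all 26516 tested probe sets. At D1, 0 of 14 member probe sets were called, against 0.0528% of all probe sets, with adjusted p from 0.949 to 0.999. At D2, 0 of 14 were called, also against 0.0528%, with adjusted p from 0.76 to 1. Averaged over D1 and D2, 0 of 14 were called, against 0.256%. At an unadjusted p under 0.05 the count was likewise 0 of 14 at D1, at D2 and in the average, against 5.19%, 6.68% and 8.01% of all probe sets. The 3 samples of one culture lay wholly above or below those of the other for 2 of 14 probe sets at D1 and 3 of 14 at D2, against 9.53% and 13.1% of all probe sets. With the wash run as a block the count of called member probe sets was also 0 in each comparison.

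The size of change that the arrays leave possible was narrow for most of the subunits. Averaged over both stages, the log2 difference of the 7 represented genes ran from -0.24 for Itga5 to 0.07 for Itgb1, with a median of -0.10 against -0.02 over all represented genes. The 95% intervals lay within 2-fold in either direction for 13 of 14 probe sets and for all 7 represented genes. At D1 this held for 10 of 14 probe sets and 5 of 7 represented genes, and at D2 for 11 of 14 and for all 7. At D1 the intervals of Itga5 (-1.051 to 0.022) and Itga9 (-1.132 to 0.135) reached past 2-fold. Of the 14 probe sets, 4 belong to Itgb5, so counts of probe sets are not counts of subunits. The plot of differences by comparison shows these intervals for every tested probe set.

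**Figure D2:**
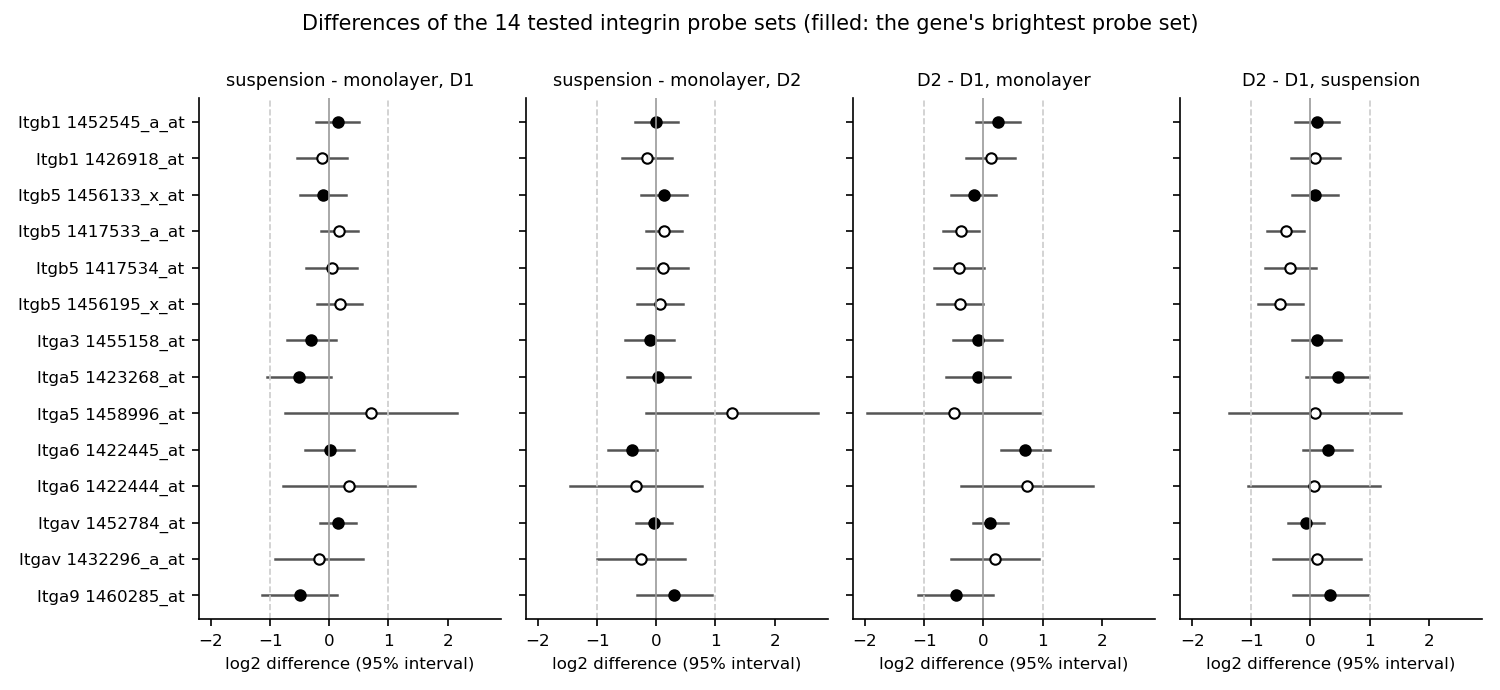
Log2 difference (horizontal axis) with its 95% interval for the 14 tested integrin probe sets in 4 comparisons; filled points are the brightest tested probe set of each gene, and dashed lines mark 2-fold. All culture intervals cross 0 and most lie within 2-fold. In the stage comparisons Itga6 1422445_at lies to the right (0.71 in monolayer) and Itgb5 1417533_a_at to the left (-0.38 and -0.42).

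Itgb1, the shared beta subunit, had 6 probe sets, of which 2 were tested; the other 4 ranged from 3.38 to 487. The brightest, 1452545_a_at, read 3099, 2916 and 2530.5 in monolayer at D1 and 2423, 3373 and 3755.5 in suspension at D1. At D2 it read 3893, 3009.6 and 3319 in monolayer and 3341, 3498 and 3348 in suspension. The cultures overlapped at both stages, and the suspension samples at D1 spanned nearly the whole range seen. The suspension to monolayer ratio of Itgb1 averaged over stages was 1.05-fold (95% interval 0.876 to 1.26; limma, adjusted p = 0.933). Within the wash runs the averaged log2 difference was 0.18, -0.25 and 0.29, so its sign was not shared. The second tested probe set, 1426918_at, differed by -0.14 ± 0.14 (SE) averaged over stages. At D2 its suspension signals of 2356, 2505 and 2370 all lay below its monolayer signals of 2912, 2549 and 2644. That D2 difference was -0.16 ± 0.19 (SE; limma, adjusted p = 0.932). Over the 12 samples the 2 tested probe sets of Itgb1 had a Pearson correlation of 0.21.

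Itgb5, the vitronectin receptor's beta subunit, had 4 probe sets, all tested. The brightest, 1456133_x_at, read 8467, 4985 and 6954 in monolayer and 6434, 5784 and 6274 in suspension at D1. The D2 signals were 6042, 5663 and 6070.4 in monolayer and 6049, 5802 and 7725 in suspension. The cultures overlapped at both stages, and a single D1 monolayer sample was the highest of the 12. The averaged ratio of suspension to monolayer was 1.01-fold (95% interval 0.832 to 1.22; limma, adjusted p = 0.992), and the log2 difference within the wash runs was 0.15, -0.23 and 0.10. The other 3 probe sets gave averaged log2 differences of 0.07 to 0.15, none called.

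Among the laminin-binding alpha subunits, Itga3 read 923, 1082 and 795 in monolayer and 846, 674 and 709.9 in suspension at D1 on probe set 1455158_at, the tested one of its 3. Its D2 signals were 838, 877 and 884 in monolayer and 828, 833 and 743 in suspension. All suspension samples lay below all monolayer samples at D2, by a small margin, and the groups overlapped at D1. The averaged log2 difference of Itga3 was -0.21 ± 0.14 (SE; limma, adjusted p = 0.764), and it was -0.36, -0.06 and -0.20 within the wash runs, negative in all 3.

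Itga6, whose product pairs with Itgb1 or Itgb4, had 2 probe sets, both tested. Its brightest, 1422445_at, read 4786, 6989.5 and 4958 in monolayer and 5369.5, 6812 and 4624 in suspension at D1. The D1 groups overlapped almost wholly, with a log2 difference of 0.01 (95% interval -0.40 to 0.42). At D2 it read 10761, 8396 and 8082 in monolayer and 6510.5, 7884 and 6098 in suspension, so that every suspension sample lay below every monolayer sample. The D2 difference of Itga6 was -0.41 ± 0.19 (SE; limma, adjusted p = 0.76), which did not pass. Averaged over stages it was -0.20 ± 0.14, and -0.20, -0.14 and -0.25 within the wash runs. The other Itga6 probe set, 1422444_at, gave a culture difference of 0.338 ± 0.519 at D1 and -0.341 ± 0.519 at D2. Averaged over stages 1422444_at gave -0.002 ± 0.367 (SE), and none of these was called. Itga7, a laminin-binding alpha subunit of muscle, had 1 probe set, which did not exceed the chip's median signal on any array and was not tested. Its signal ran from 51.8 to 285 in monolayer at D1, from 45.0 to 84.4 in suspension at D1, from 60.6 to 160.2 in monolayer at D2 and from 70.5 to 132 in suspension at D2. The 4 groups of Itga7 overlapped; no detection calls were used here, so these low signals could not be marked as absent.

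Itga5, the alpha subunit of the fibronectin receptor, had the most negative culture difference of the represented genes at D1. Its brightest tested probe set, 1423268_at, read 865, 681 and 751 in monolayer and 569, 424 and 575 in suspension at D1. Every suspension sample lay below every monolayer sample. By D2 the signals were 831, 568 and 763 in monolayer and 556, 822 and 853 in suspension, and the cultures overlapped. The D1 log2 difference was -0.515 (95% interval -1.05 to 0.02; limma, unadjusted p = 0.0587, adjusted p = 0.949), and -0.62, -0.56 and -0.36 within the wash runs. At D2 it was 0.04 (95% interval -0.50 to 0.57). A second tested Itga5 probe set, 1458996_at on MOE430B, went the other way, with an averaged log2 difference of 0.99 ± 0.49 (SE; limma, adjusted p = 0.636) against -0.24 for the first. Probe set 1458996_at exceeded its chip's median signal on 4 of 12 arrays, at 917 in monolayer and 956, 998 and 902 in suspension. It thus passed the filter through the culture where it read higher, and its signals ran from 85.3 to 998. Over the 12 samples the 2 probe sets of Itga5 had a Pearson correlation of -0.36, given as a description. They did not share a direction. Probe set 1423268_at was itself near the filter, exceeding its chip's median signal of 599.8 on 7 of 12 arrays. At D1 its suspension signals all lay below that median. The 2 probe sets leave the direction of Itga5 undecided.

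Itgav, the alpha subunit shared by several receptors that bind vitronectin and fibronectin, varied little over the samples on its brightest probe set. Its brightest probe set, 1452784_at, read 1747, 1964 and 1759.9 in monolayer and 2024, 2165 and 1909 in suspension at D1. Signals at D2 were 2080.2, 2052 and 1817 in monolayer and 1869, 1881 and 2026 in suspension. The highest of the 12 samples was 1.24 times the lowest. The SD over the 12 log2 values was 0.096, against a median of 0.374 over all tested probe sets, and 0.117% of tested probe sets had a smaller one. Among probe sets of similar signal level the share with a smaller SD was 0.276%. The averaged ratio of suspension to monolayer was 1.04-fold (95% interval 0.897 to 1.2; limma, adjusted p = 0.937), with log2 differences of 0.00, 0.03 and 0.13 within the wash runs. The other tested Itgav probe set, 1432296_a_at, was dimmer and ranged from 316 to 887. Its SD was 0.383, and 51.6% of tested probe sets had a smaller one. Its averaged culture difference was -0.21 ± 0.25 (SE, limma, adjusted p = 0.887), and its Pearson correlation with 1452784_at was -0.12.

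Itga9, an alpha subunit that binds tenascin-C and other ligands with Itgb1, read 823, 757 and 742 in monolayer and 454, 477 and 694 in suspension at D1 on probe set 1460285_at. At D2 it read 568, 456 and 626 in monolayer and 636, 465 and 1070.3 in suspension. The suspension samples lay below all monolayer samples at D1 and overlapped with them at D2, where a single suspension sample stood high. The D1 difference of Itga9 was -0.50 ± 0.29 (SE; limma, adjusted p = 0.969) and the D2 difference 0.30 ± 0.29. Within the wash runs the D1 difference was -0.61, -0.79 and -0.09.

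From D1 to D2, the lowest unadjusted p-values were those of 3 Itgb5 probe sets, which read lower at D2, and of Itga6 1422445_at, which read higher. None of them passed the test in the fit with 1 mean per group and no block. Averaged over both cultures, 0 of 14 member probe sets were called, against 0% of all probe sets, with adjusted p from 0.162 to 0.995. In monolayer 0 of 14 were called, against 0.00754%, and in suspension 0 of 14, against 0%. At an unadjusted p under 0.05, 4 of 14 stood out in the average, 3 of them lower at D2, against 10.4% of all probe sets. The same count was 3 of 14 in monolayer, against 7.98%, and 2 of 14 in suspension, against 5.86%. The D1 and D2 samples did not overlap for 3 of 14 probe sets in monolayer and 2 of 14 in suspension, against 12.4% and 11.8%. The probe sets of a gene share its transcript and are not independent of each other.

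Itgb5 1417533_a_at read 6848, 5555 and 7621 in monolayer at D1 and 4620.3, 4923 and 5784 at D2. In suspension it read 7621, 7347 and 7402 at D1 and 5509.5, 5599.6 and 5577 at D2. All D2 samples in suspension lay below all D1 samples, with little spread in either group, while in monolayer 1 D1 sample lay below the highest D2 sample. The averaged log2 difference was -0.40 ± 0.10 (SE), a 0.759-fold level at D2 (95% interval 0.652 to 0.883; limma, unadjusted p = 0.00158, adjusted p = 0.162). Within the wash runs it was -0.29, -0.50 and -0.40, and it was negative in all 6 pairings of culture and run. Probe set 1456195_x_at gave -0.45 ± 0.13 (adjusted p = 0.197) and 1417534_at gave -0.38 ± 0.14 (adjusted p = 0.352). The brightest Itgb5 probe set, 1456133_x_at, gave -0.05 (95% interval -0.32 to 0.23), with within-run values of 0.12, -0.32 and 0.05. Across the 12 samples 1417533_a_at correlated with 1456195_x_at at 0.85 and with 1417534_at at 0.59, but with 1456133_x_at at 0.34. Probe sets with the ending x can hold probes that match other transcripts, and both 1456133_x_at and 1456195_x_at carry it.

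Itga6 1422445_at differed in the opposite direction. In monolayer all D2 samples exceeded all D1 samples, and the mean signal was 5578 ± 1225 at D1 and 9080 ± 1465 at D2 (SD, n = 3). That is a log2 difference of 0.71 ± 0.19 (SE; limma, unadjusted p = 0.0025, adjusted p = 0.32). In suspension the mean was 5602 ± 1113 at D1 and 6831 ± 934.9 at D2 (SD, n = 3), the groups overlapped, and the difference was 0.29 ± 0.19. Averaged over both cultures the D2 level was 1.42-fold (95% interval 1.16 to 1.73; adjusted p = 0.187), and the log2 difference within the wash runs was 0.10, 0.86 and 0.55. The difference between cultures in this stage effect was -0.41 (95% interval -0.998 to 0.17; limma, adjusted p = 1). The second Itga6 probe set, 1422444_at, gave 0.39 ± 0.37 and moved with the wash run: all 4 samples of the later run read 936 to 1510.5, and the other 8 read 1573 to 3715. The part of the wash run in this probe set's differences was not tested beyond the fit with the run as a block and the values within runs, which were -0.12, 0.88 and 0.43.

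With the wash run as a block, the adjusted p averaged over cultures was 0.0851 for Itgb5 1417533_a_at and 0.0846 for Itga6 1422445_at. Without the later wash run it was 0.593 and 0.626, with log2 differences of -0.397 and 0.477. Without replicate 2 of monolayer at D1 both were called, at adjusted p = 0.0273 and 0.0351, and with array weights at 0.0254 and 0.0269; that left-out sample had the lowest Itgb5 1417533_a_at and the highest Itga6 1422445_at signal of its group. Leaving out that sample called 529 probe sets over both chips, against 0 with all samples.

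**Figure D3:**
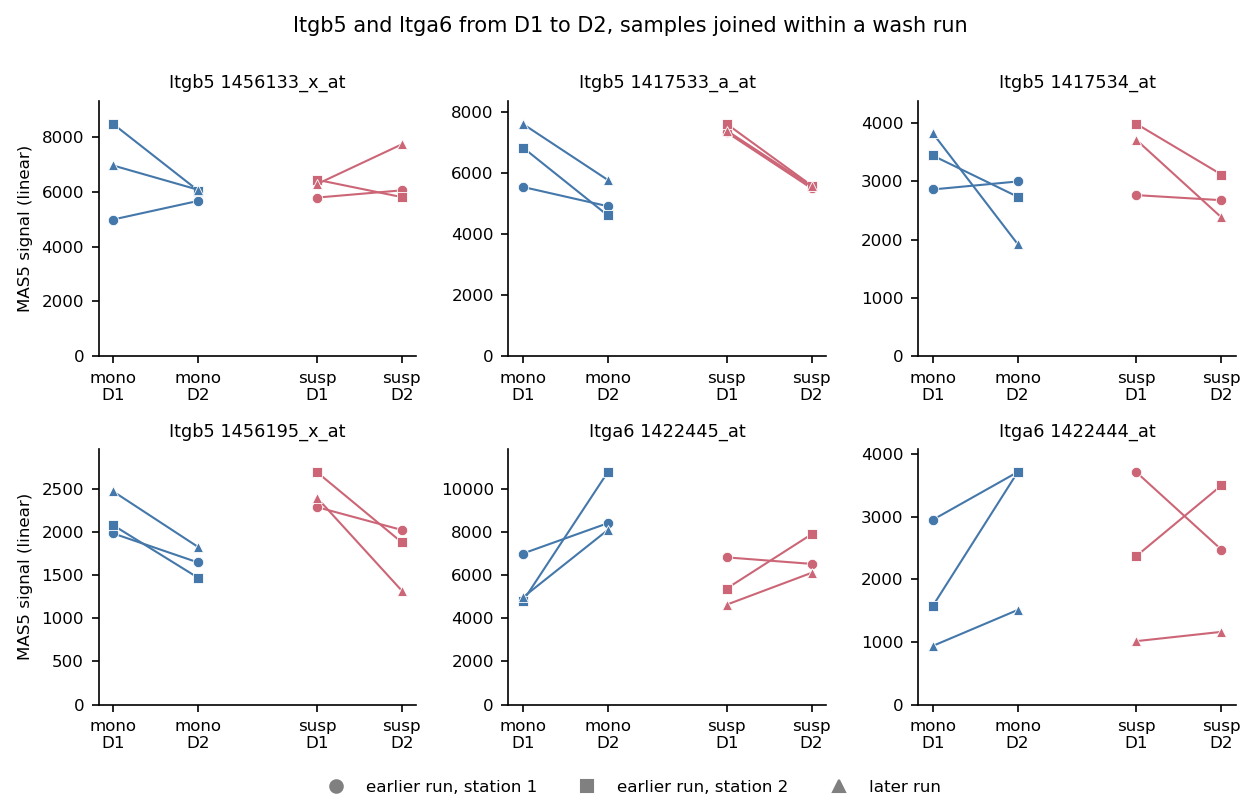
Linear MAS5 signal (vertical axis, from 0) of the 4 Itgb5 and 2 Itga6 probe sets at D1 and D2; lines join the samples of a culture that shared a wash run, and marker shape gives the run. All 6 lines of Itgb5 1417533_a_at go down and 5 of 6 lines of Itga6 1422445_at go up, while Itga6 1422444_at is lowest in the later run in each group.

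On the brightest tested probe sets of the other subunits, the log2 stage difference averaged over cultures lay between -0.07 for Itga9 and 0.18 for Itga5 and Itgb1. The second Itga5 probe set, 1458996_at, lay outside this range at -0.216 ± 0.485 (SE; 95% interval -1.246 to 0.814). Itgb1 differed by 0.18 ± 0.12, Itga5 by 0.18 ± 0.18, Itgav by 0.02 ± 0.10 and Itga3 by 0.01 ± 0.14 (SE), none called. The 95% interval lay within 2-fold for all 7 represented genes. Over all represented genes the median was 0.01.

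The interaction of culture and stage, which asks whether the stage difference is the same in both cultures, called 0 of 14 member probe sets, against 0% of all, and 0 of 14 at an unadjusted p under 0.05, against 3.64%. The largest value among the represented genes was 0.80 for Itga9 (95% interval -0.10 to 1.7; limma, unadjusted p = 0.076, adjusted p = 1), positive in all 3 wash runs at 1.05, 0.53 and 0.82. For Itga5 1423268_at it was 0.55 (95% interval -0.21 to 1.31), and 0.60, 0.55 and 0.51 within the runs. These intervals are wide, and 9 of 14 lay within 2-fold.

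The partners of these receptors were read from lists of ligands, activators and adaptors, lateral partners and the other integrin genes, each gene standing for its brightest tested probe set. Ccn2, Ccn1 and Col18a1, 3 of the ligands, fell in suspension. Of the 34 ligands, 16 were tested. At an unadjusted p under 0.05 there were 4 of 16 at D1, 5 at D2 and 5 in the culture average, against 5.19%, 6.68% and 8.01% of all probe sets. Averaged over stages 3 fell, 0 rose and 13 did not pass, against 0.256% of all probe sets called. The same 3 genes fell at D1 and at D2, against 0.0528% called at each stage. The averaged call of all 3 held under each of the 21 alternatives. The calls at single stages held less often. At D1 those of Ccn2 and Ccn1 were lost without replicate 2 or 3 of monolayer or replicate 1 or 2 of suspension at D1, with adjusted p of 0.0537 to 0.0911. That of Col18a1 at D1 held in 6 of 21 alternatives and was lost without any 1 sample except replicate 3 of suspension at D1. Without the later wash run all 3 lost their call at D1, with adjusted p of 0.164 to 0.209, and at D2, with 0.0558 to 0.086. The log2 differences at single stages stayed between -1.04 and -2.04 under all alternatives. The list's median was 0.00, against -0.02 over all represented genes. From D1 to D2, 0 of the 16 ligands were called in either culture, against 0.00754% of all probe sets in monolayer and 0% in suspension. At an unadjusted p under 0.05 there were 1 of 16 in monolayer and 2 of 16 in suspension, against 7.98% and 5.86%.

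Ccn2, a matricellular protein that binds integrins, read 4212, 4167 and 4933 in monolayer and 1208, 1570.4 and 1445 in suspension at D1, and 4998, 4744.5 and 6842 against 1588, 1679 and 1049 at D2. Its cultures were far apart at both stages, with an averaged log2 difference of -1.77 ± 0.14 (SE; limma, adjusted p = 0.000142). Ccn1, its relative and a ligand of receptors that contain Itgav or Itga6, read 1333, 1541 and 2005 against 613, 444 and 541 at D1, and 2471, 2558 and 2373 against 810.4, 638 and 662 at D2. The averaged difference was -1.63 ± 0.14 (SE; limma, adjusted p = 0.000147), again with no overlap. Col18a1, the basement membrane collagen whose endostatin fragment binds integrins, fell from 2994 ± 321 to 1286 ± 269 at D1 and from 2751 ± 377 to 741 ± 113 at D2 (SD, n = 3), by 1.51 on the log2 scale on average (limma, adjusted p = 0.000195). Within the wash runs the averaged difference was -1.46, -1.65 and -2.19 for Ccn2, -1.64, -1.47 and -1.78 for Ccn1, and -1.53, -1.49 and -1.52 for Col18a1. A second probe set of Col18a1 differed by -1.25 (adjusted p = 0.00552) and a second one of Ccn1 by -1.25 (adjusted p = 0.0712). Fn1, the fibronectin ligand of Itga5, was picked out after its values were seen. It read 2758 ± 781 in monolayer and 3815 ± 429 in suspension at D1, and 2903 ± 172 and 5294 ± 961 at D2 (SD, n = 3). The averaged difference of Fn1 was 0.66 ± 0.14 (SE, limma, adjusted p = 0.0776, and 0.0219 with the wash run as a block). Its adjusted p was 0.0166 without replicate 2 of monolayer at D1 and 0.042 without replicate 2 of suspension at D2. Without the later wash run the adjusted p of Fn1 was 0.454, with a log2 difference of 0.629.

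Of the 56 activators and adaptors that join integrins to actin, 46 were tested. Averaged over stages 1 fell in suspension, 0 rose and 45 did not pass, against 0.256% of all probe sets called, with a list median of -0.12. At D1, at D2, in the stage comparisons and in the interaction 0 were called, against at most 0.0528% of all probe sets. At an unadjusted p under 0.05 there were, of 46 genes, 3 at D1 against 5.19% of all probe sets, 6 at D2 against 6.68%, 7 in the culture average against 8.01% and 7 in the stage average against 10.4%. There were 4 for stage in monolayer against 7.98%, 2 for stage in suspension against 5.86% and 2 in the interaction against 3.64%. The gene that fell was Bcar1, the adaptor p130Cas of focal adhesions. It read 3634 ± 748 in monolayer and 2305 ± 266 in suspension at D1, and 5240 ± 1117 and 2651 ± 411 at D2 (SD, n = 3). The averaged log2 difference was -0.80 ± 0.14 (SE; limma, adjusted p = 0.0313), and 0.00703 with the wash run as a block; within the runs it was -0.92, -0.53 and -0.94. A second Bcar1 probe set gave -0.37 ± 0.17 (adjusted p = 0.617). The call of Bcar1 was lost when any 1 of 7 samples was left out: replicate 3 of monolayer at D1, replicates 1 and 2 of suspension at D1, replicates 2 and 3 of monolayer at D2, and replicates 1 and 3 of suspension at D2. The adjusted p was then 0.0659 to 0.1, with a log2 difference of -0.716 to -0.829, with median centring it was 0.0571, and without the later wash run it was 0.248, with a log2 difference of -0.724. Zyx, the focal adhesion and actin regulator zyxin, was picked out after its values were seen. It read 3568 ± 859 in monolayer and 5474 ± 209 in suspension at D1, and 4222 ± 423 and 5955 ± 144 at D2 (SD, n = 3), with no overlap at either stage. Its averaged log2 difference was 0.565 ± 0.11 (SE; limma, adjusted p = 0.0663), 0.0376 with the wash run as a block, 0.0386 with the stricter filter and 0.0203 without replicate 1 of monolayer at D1. Over all alternatives the adjusted p of Zyx ran from 0.0153 to 0.465.

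Of the 18 other integrin genes, 7 were tested and 0 were called in any of the 7 comparisons, against at most 0.256% of all probe sets. At an unadjusted p under 0.05 there was 1 of 7 at D2, 1 in the culture average and 1 in the interaction, against 6.68%, 8.01% and 3.64%. The lowest adjusted p in the averaged culture comparison was that of Itga10, a collagen-binding alpha subunit, with a signal of 748 ± 386 in monolayer and 1418 ± 255 in suspension at D1, and 469 ± 305 and 1576 ± 282 at D2 (SD, n = 3). Its log2 difference was 1.31 ± 0.34 (SE; limma, adjusted p = 0.194), and 1.00, 0.59 and 2.33 within the wash runs. The Itga10 probe set passed the filter through suspension, the culture where it read higher. Its suspension signals ran from 1136 to 1894, all above the chip's median of 846.4, and its monolayer signals from 225 to 1014. Itga4, which binds fibronectin and VCAM-1, followed with 0.26 ± 0.27 (adjusted p = 0.861). Of the 15 lateral partners, such as tetraspanins and syndecans, 14 were tested and 0 called in any comparison, against at most 0.256% of all probe sets. At an unadjusted p under 0.05 there were 2 of 14 at D2 and 2 in the culture average, against 6.68% and 8.01%. For stage there were 3 in monolayer, 2 in suspension and 4 in the average, against 7.98%, 5.86% and 10.4%. The tetraspanin gene Tspan4 had the lowest adjusted p, with an averaged culture difference of -0.92 ± 0.26 (adjusted p = 0.256) with 0.10, -1.36 and -1.50 within the wash runs, and a stage difference of -1.25 ± 0.26 (adjusted p = 0.116, 0.0281 with array weights and 0.0117 without replicate 2 of monolayer at D1). Without the later wash run the stage difference of Tspan4 was -1.01 (limma, adjusted p = 0.593). Cd151, the tetraspanin that associates with laminin-binding integrins, gave a culture difference of -0.395 ± 0.15 (adjusted p = 0.515).

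The 18S control signal on MOE430A averaged 28890 in monolayer and 56080 in suspension at D1, and 45450 and 60080 at D2. Its cultures overlapped at both stages. The range was 11310 to 45420 against 43000 to 68290 at D1, and 37140 to 60140 against 58000 to 64040 at D2. The 3' to 5' ratio of beta-actin averaged 1.09 in monolayer and 1.253 in suspension at D1, and 1.115 and 1.157 at D2. Both controls and the summed trophoblast marker signals were higher on average in suspension, alongside these ligand and adaptor differences. The part of the controls and of the marker sums in these results was not tested.

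**Figure D4:**
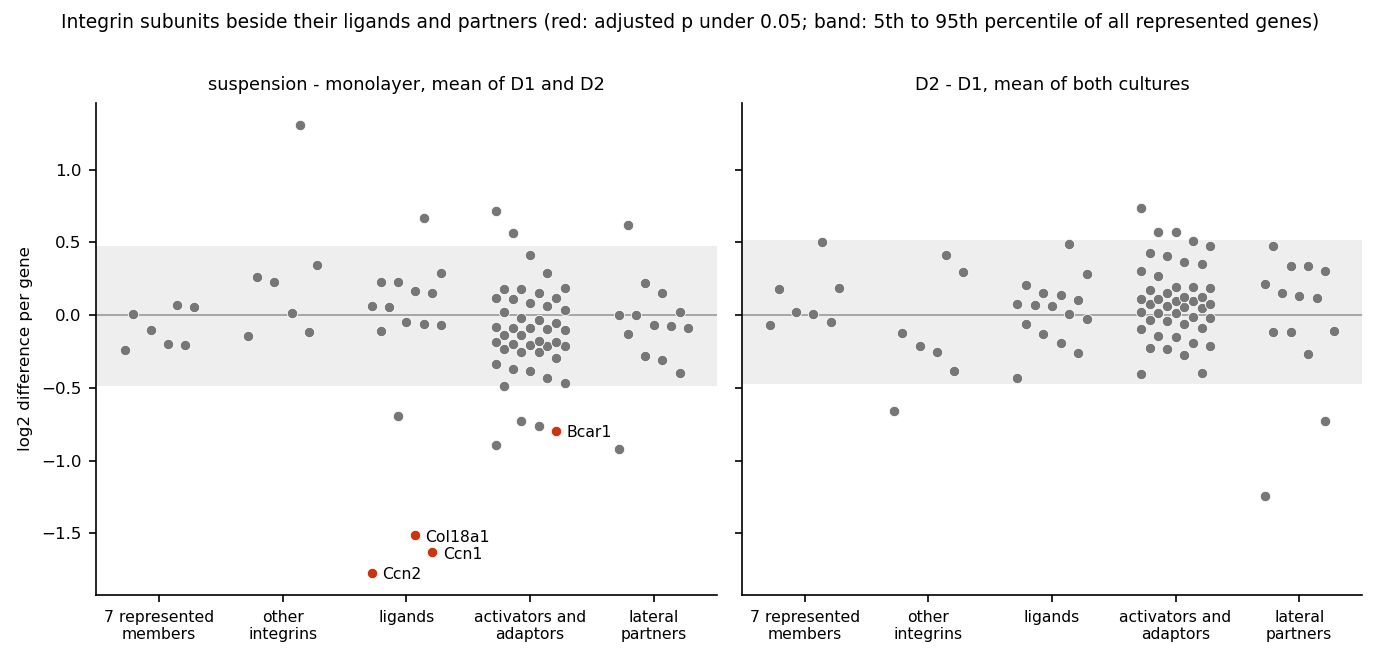
Log2 difference per gene (vertical axis) averaged over stages (left, suspension minus monolayer) and over cultures (right, D2 minus D1). Points are genes in 5 lists, red where called, and the grey band spans the 5th to 95th percentile of all represented genes. The 7 represented integrin subunits lie inside the band on both sides, while Ccn2, Ccn1 and Col18a1 lie far below it on the left.

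The genes whose pattern over the 12 samples was most like that of Itgb1 on the same chip, among 6576 genes, were Car11 (Pearson's r = 0.818), Mvb12a (0.81) and Pdcl (0.791). For Itga5 1423268_at they were Dcc (0.926), Sftpb (0.921) and Mmp7 (0.901). These values describe 12 samples that share arrays, wash runs and scaling, and each is the highest of 6576 correlations.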

How the data were processed

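Total RNA of 12 P19 samples was hybridised to 24 arrays. Per the submitters' processing notes the authors computed the deposited intensities with MAS5 (version not given in the sources used here); the deposited scaling, with a trimmed mean of 1500 or 1501 on each array, was kept. Detection calls were not used, and the number of arrays limits the precision. The files name no genome build, so no coordinates are given.

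The chip's 10th percentile, 51.0 or 108.1, was added before log2 was taken, so differences of low genes are understated. Probe sets were tested if at least 3 of 12 arrays exceeded the chip's median, 599.8 or 846.4; control probe sets were left out and 100 probe sets on both chips were counted once. limma 3.58.1 in R 4.3.3 fitted 1 mean per group to all 12 samples, with variance following signal, after a check on simulated data. P-values are two-sided and Benjamini-Hochberg adjusted over both chips. Symbols come from the platform annotation; Entrez IDs changed 0. Of a gene's tested probe sets, the one with the highest mean stood for it. All tested member probe sets were covered. Untested probe sets read 41.8 to 313 for Itga3, 78.8 to 1418 for Itga5, 49.3 to 878 for Itgav and 20.4 to 378 for Itga9. Of each further list, genes that passed were named, or else the 2 with the lowest adjusted p in the averaged culture comparison. For Itgb1 and Itga5 the 3 most similar genes were named. Members and lists were chosen with earlier results of these data known. Alternatives were a replicate or wash block, other scaling, offset and filters, array weights, and leaving out samples.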

Additional observations from a re-analysis of the deposited data

How the results depend on the processing

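Precision is limited by 3 samples per group and, without detection calls, signal over background is not known. Of the 7 counts of called member probe sets, 4 of culture or interaction and that of stage in suspension were 0 under every alternative run. With the replicate number as a block, 1 member probe set was called from D1 to D2 in monolayer (Itga6 1422445_at, adjusted p = 0.0498) and 2 in the average over cultures (that probe set, 0.0283, and Itgb5 1417533_a_at, 0.0374); array weights also called 2, and leaving out samples gave 0 to 2. The block also called Tspan4 for averaged stage (0.0101), Fn1 (0.0366) and Zyx (0.0153) for averaged culture. The replicate numbers were not taken as pairs: correlations of same-numbered deviations lay between 0.1 and 0.388 for MOE430A, where 17 of 18 pairs exceeded 0.1, and between 0.01 and 0.161 for MOE430B, where 10 did. Each of the 12 samples correlated best with its own number, a hint from the data and not from the design. Over all probe sets the replicate block called 30 at D1, 89 at D2, 220 in the averaged culture comparison, 193 for stage in monolayer and 595 for stage averaged, against 14, 14, 68, 2 and 0 without it. The wash block called 0 for stage in monolayer and 25 for stage averaged. Array weights called 41 at D2, 33 for stage in monolayer, 123 for averaged culture and 485 for averaged stage. Without the later wash run the counts were 0 at D1, 1 at D2, 14 for averaged culture and 1 for stage in monolayer. Quantile normalization gave 4 at D1 and 1 for stage in monolayer, median centring 8 at D1, no filter 4 at D1, 45 for averaged culture and 0 for stage in monolayer, and the stricter filter 0 for stage in monolayer. Leaving out 1 sample gave 0 to 13 at D1, 5 to 21 at D2, 36 to 79 for averaged culture, 0 to 234 for stage in monolayer, 0 to 2 in suspension and 0 to 529 averaged; the highest stage counts came without replicate 2 of monolayer at D1. The cause of these shifts was not tested.

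Some differences near 0 turned sign. Without the later wash run the averaged culture difference was -0.036 for Itgb1 and -0.036 for Itgb5 1456133_x_at, and the averaged stage difference -0.041 for Itga3 and -0.001 for Itgav. Quantile normalization gave -0.005 for Itgb5 1456133_x_at in culture and -0.067 for Itga3 and -0.005 for Itgav in stage. Median centring gave -0.059 for Itga3 and -0.046 for Itgav in stage. Array weights gave -0.054 for Itgb1 and -0.059 for Itgb5 1456133_x_at in culture and -0.017 for Itga3 in stage. Leaving out samples, the averaged culture difference of Itgb5 1456133_x_at ran from -0.094 to 0.096 and that of Itga9 from -0.251 to 0.029, and the averaged stage difference of Itgb5 1456133_x_at from -0.15 to 0.04, of Itga3 from -0.045 to 0.06, of Itgav from -0.001 to 0.051 and of Itga9 from -0.218 to 0.062. Of 44 single differences recomputed, 347 of 383 values under other settings and 482 of 528 with a sample left out kept their direction and their side of the threshold.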
